A study of Mus musculus with 4 samples.

Results

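Costimulatory receptors and their ligands were examined in the open chromatin of cultured mouse natural killer (NK) cells, which are innate lymphocytes dependent on the cytokine interleukin-15 (IL-15). The 10 genes were Tnfrsf9, Tnfrsf4, Tnfrsf18, Tnfrsf1b, Cd27, Cd28, Icos, Tnfsf4, Tnfsf9 and Cd70. A region of accessible chromatin was counted for one of these genes when that gene was the nearest protein-coding gene, and 87 of the 91266 regions in the deposited list met this rule. The rule that gives a region to a gene uses position only, while the genes themselves were chosen with earlier results of these data known. Of the 10 genes, 8 encode TNF receptors or TNF-family ligands, whereas Cd28 and Icos encode receptors of the immunoglobulin superfamily and are kept apart from the TNF genes below.

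The study asked how the dose of IL-15 alters chromatin accessibility in splenic NK cells. ATAC-seq, in which a transposase inserts adapters into open DNA, was performed on 4 samples of wild-type (WT) C57BL/6 NK cells after 72 h of culture, 2 in a high dose (HD) and 2 in a low dose (LD) of IL-15. About 75000 cells entered each reaction. The concentrations, the purity of the cells, the age and sex of the mice and whether animals were pooled are not given in the sources used here. The deposited tables hold the positions of accessible regions and the authors' own lists of regions called up or down between the doses, with 0 columns of values per sample. Levels, replicate spread and sequencing depth are therefore unknown, no fold change or p-value can be given, and the authors' calls were not retested. Which dose was the reference is not stated, so up and down are used below as the names of the deposited lists, without a dose attached to either. In bulk samples, a change in how many cells carry an open region and a change in how open it is in each cell cannot be told apart.

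Costimulatory receptors deliver signals that strengthen the response of a lymphocyte already engaged through its activating receptors. The TNF-receptor members bind trimeric ligands of the TNF family and recruit TRAF adaptor proteins, which lead to NF-kB and MAP kinase signalling, whereas CD28 and ICOS recruit phosphoinositide 3-kinase. In NK cells, CD27 is a marker of maturation stages and CD137 (Tnfrsf9) is known as a receptor that appears after activation.

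At all 10 NK cell marker genes examined, among them Ncr1, Eomes and Il2rb, at least 1 accessible region overlapped the gene, with 1 to 7 per gene. Of 6 T cell markers 4 had an overlapping region, Cd3e, Cd3d, Cd3g and Cd5, while Cd4 and Cd8a were the nearest gene to 0 regions. Of 4 B cell markers only Pax5 had overlapping regions, and of 5 myeloid markers Csf1r, Itgax and Cd14 did. Being the nearest gene to at least 1 region was common, and held for 16387 of the 21900 protein-coding genes. A region at a marker gene therefore says little by itself about which cells were present. The share of other cells in the cultures was not measured by these tables.

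The sequence before the start of transcription was available for 5 of the receptors from RefSeq (assembly GRCm38.p6) and is shown here for 4 of them, those whose start lay in an accessible region or which had a listed region. Each line gives the 250 bases before an annotated start on the strand of the gene, 5′ to 3′. Capitals mark matches on either strand to 6 motifs of transcription factor families: AP-1 (TGANTCA), STAT5 (TTCNNNGAA), T-box (TCACACC), RUNX (TGTGGT), ETS (CCGGAAGT) and the NF-kB consensus of 10 letters. Tnfrsf9 has 2 annotated starts and is shown at both, because they differ in accessibility and in motifs.
Tnfrsf9, first start, chr4:150919905-150920154, plus strand: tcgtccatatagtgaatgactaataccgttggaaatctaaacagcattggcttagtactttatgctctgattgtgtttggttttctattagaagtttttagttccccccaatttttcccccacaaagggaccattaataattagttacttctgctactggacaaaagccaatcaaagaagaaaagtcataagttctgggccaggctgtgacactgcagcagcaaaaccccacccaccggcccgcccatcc
Tnfrsf9, second start, chr4:150927749-150927998, plus strand: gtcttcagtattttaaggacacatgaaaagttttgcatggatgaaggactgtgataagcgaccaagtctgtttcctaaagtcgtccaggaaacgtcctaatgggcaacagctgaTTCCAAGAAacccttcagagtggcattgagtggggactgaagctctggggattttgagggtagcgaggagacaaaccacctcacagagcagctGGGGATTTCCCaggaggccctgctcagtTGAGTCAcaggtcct
Tnfrsf18, chr4:156026072-156026321, plus strand: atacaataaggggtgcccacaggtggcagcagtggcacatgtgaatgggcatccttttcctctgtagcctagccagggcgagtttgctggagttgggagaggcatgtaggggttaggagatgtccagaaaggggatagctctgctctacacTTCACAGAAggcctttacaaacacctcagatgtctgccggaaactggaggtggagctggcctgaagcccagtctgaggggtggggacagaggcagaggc
Tnfrsf1b, chr4:145246871-145247120, minus strand: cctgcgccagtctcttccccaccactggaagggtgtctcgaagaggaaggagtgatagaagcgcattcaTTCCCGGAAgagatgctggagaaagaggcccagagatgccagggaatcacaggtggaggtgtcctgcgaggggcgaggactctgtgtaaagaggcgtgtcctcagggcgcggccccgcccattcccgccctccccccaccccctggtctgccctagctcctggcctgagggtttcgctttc
Cd27, chr6:125237028-125237277, minus strand: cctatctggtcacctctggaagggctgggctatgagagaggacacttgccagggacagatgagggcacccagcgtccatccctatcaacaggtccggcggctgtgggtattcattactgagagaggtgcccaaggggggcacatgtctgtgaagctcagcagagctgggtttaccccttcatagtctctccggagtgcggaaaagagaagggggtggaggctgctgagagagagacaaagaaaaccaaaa

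The first Tnfrsf9 start had 0 of its 250 bases inside an accessible region and held a match to none of the 6 motifs. The second start lay inside the gene, 185 of its 250 bases were inside an accessible region, and it held matches to AP-1, NF-kB and STAT5. The AP-1 match TGAGTCA lay 15 to 9 bases before the start, and the STAT5 match TTCCAAGAA lay 136 to 128 bases before it. The NF-kB match GGGGATTTCC lay 43 to 34 bases before the start, and a further match in an overlapping frame began 1 base later. All of these lay within the accessible region. Over 32851 windows of the same length before annotated starts, 6.75% held AP-1, 7.25% NF-kB and 7.02% STAT5, and 8 windows (0.0244%) held all 3, a combination counted after the Tnfrsf9 sequence had been seen. Tnfrsf18 and Tnfrsf1b each held 1 STAT5 match, TTCACAGAA and TTCCCGGAA, with all 250 bases in an accessible region. Cd27 was also wholly within a region and held none of the 6, which was so for 64.9% of the windows. None of the printed sequences held a T-box, RUNX or ETS match. A match describes letters only and does not show that a factor binds.

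The accessible regions were spread unevenly over the genes. Icos had 21, Cd28 20, Tnfrsf9 13, Tnfrsf1b 13, Tnfsf4 7, Cd27 4, Tnfsf9 4, Tnfrsf18 3, Cd70 2 and Tnfrsf4 0. The median was 7 regions for the 9 genes with any, against 3 for the 16387 protein-coding genes with any. Only 4.1% of those genes had at least as many regions as Icos, and 4.6% had at least as many as Cd28. For these 2 genes the numbers came largely from distant regions: 15 of the 21 at Icos and 15 of the 20 at Cd28 lay outside the gene. Of the TNF receptors, Tnfrsf9 had 8 of 13 regions overlapping the gene, Tnfrsf1b 9 of 13, Tnfrsf18 1 of 3 and Cd27 1 of 4. Together that was 57.6% of their regions, beside 61.1% of all regions that overlapped a gene. The share was 30.8% (4 of 13) for the ligand genes, 26.8% (11 of 41) for Cd28 and Icos, and 39.1% for all 87 regions.

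**Figure D1:**
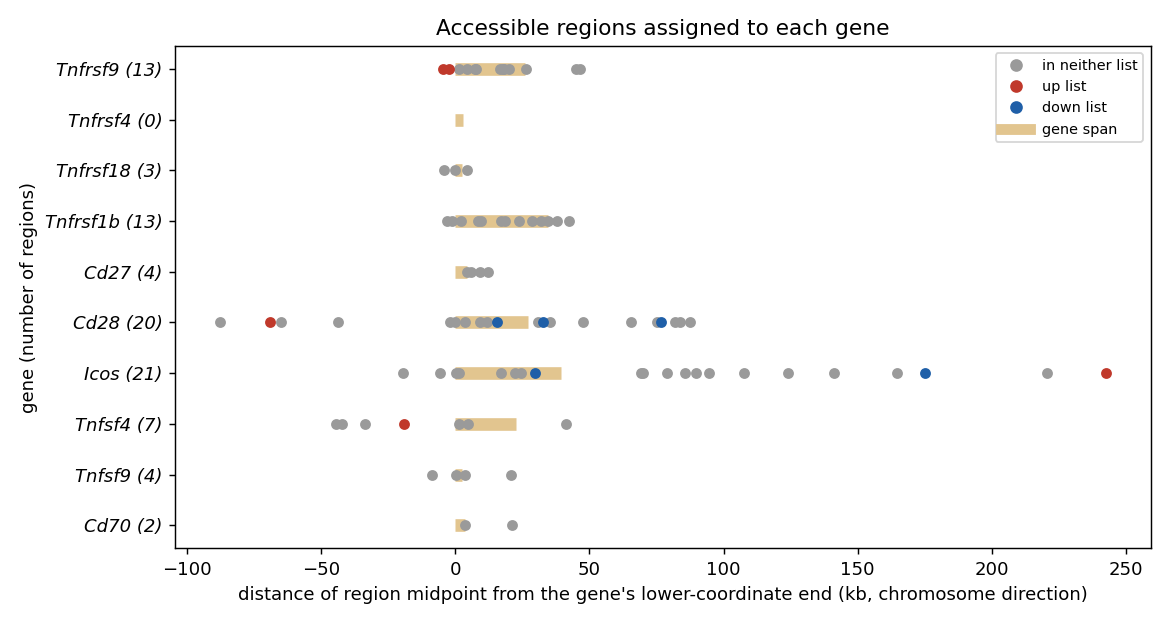
Accessible regions assigned to each of the 10 genes, with the distance of each region's midpoint from the lower-coordinate end of the gene on the x axis (kb, in the direction of the chromosome) and 1 row per gene, the number of regions in brackets. Points are regions, coloured by the authors' lists, and tan bars are gene spans. Red points (5, up list) all lie outside the genes, and blue points (5, down list) occur at Cd28 and Icos.

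The authors' up list held 5 of the 87 regions (5.75%), where 4.21% of all regions were listed as up. The down list also held 5 (5.75%), where 1.4% of all regions were listed as down. Together, 10 of the 87 (11.5%) were listed, where the share of all regions was 5.61%. The up share was near the background and is not a result about these genes. The down share was higher than the background, but its 5 regions lay at 1 locus, that of Cd28 and Icos on chromosome 1, and no test was made. Without Cd28 and Icos, 3 of 46 regions were up and 0 were down. By gene, 4 of the 9 with any region had an up region (Tnfrsf9, Cd28, Icos and Tnfsf4), where 16.1% of all protein-coding genes with a region had one. A down region was assigned to 2 of the 9 (Cd28 and Icos), where the share of all genes with a region was 5.39%. Cd28 and Icos were also the 2 members with regions in both lists, which 1.36% of genes with a region had. This depended on the assignment rule. With the nearest gene of any biotype, Cd28 and Icos each kept 1 down region and no up region, so that neither was in both lists, 2 genes had an up region and 2 of the 5 down regions were counted. Position mattered for the background as well. Of the 53 regions outside the genes, 5 were up (9.43%) and 3 were down (5.66%), where 5.46% and 1.45% of all regions outside genes were listed. Of the 34 overlapping the genes, 0 were up and 2 were down (5.88%), where the shares of all regions overlapping a gene were 3.42% and 1.36%. Genes with more regions have more chances to be counted, and Cd28 and Icos had the most here.

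The TNF receptors are described first. Tnfrsf9 encodes CD137, the receptor for the ligand made by Tnfsf9, and spans 150920155 to 150946104 on chromosome 4 (mm10, the build named in the submitters' processing notes, which is GRCm38). Its 13 regions were the only ones of the TNF-receptor genes with a listed member, and 2 of them were up. The nearer up region (chromosome 4, 150917371 to 150918001, 631 bp) ended 2154 bp before the first start. The farther one (150915189 to 150915781, 593 bp) ended 4374 bp before it. They were consecutive regions, 1589 bp apart. On the far side of the pair, 334 bp away, lay a region of 696 bp in neither list, nearest to Park7. The next region towards the gene, of 339 bp inside it, was also in neither list, as were the other 10 assigned to Tnfrsf9. The region that holds the second start, with the NF-kB, AP-1 and STAT5 letters shown above, spanned 150927814 to 150928152 and was among those in neither list. The widest Tnfrsf9 region, 1232 bp at 150924059 to 150925290, lay within the gene between the 2 starts. The nearest down region of any gene was 612.5 kb away.

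**Figure D2:**
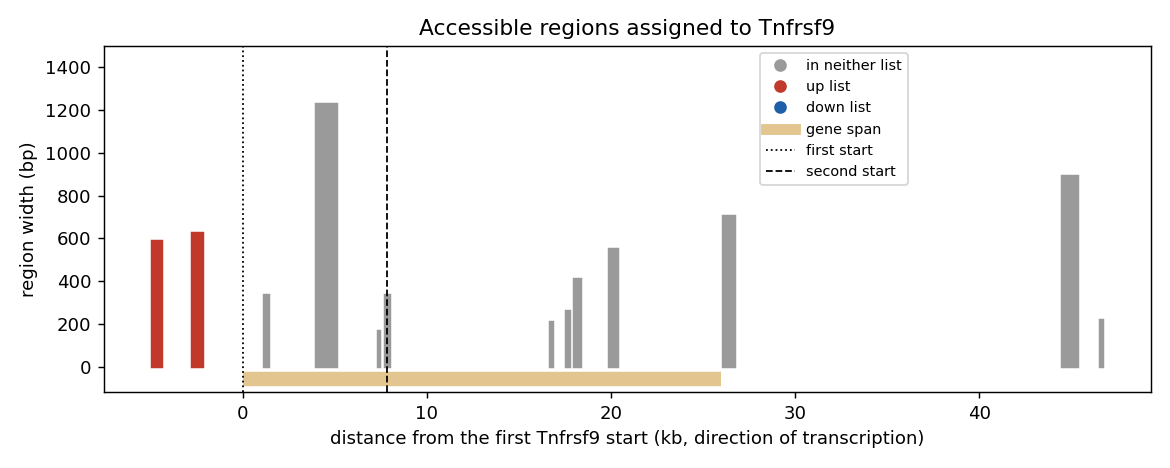
The 13 accessible regions assigned to Tnfrsf9, placed by distance from its first annotated start (x axis, kb, in the direction of transcription), with the height of each bar giving the width of the region (bp). The 2 red bars (up list, 593 and 631 bp) stand before the first start (dotted line), no bar stands on it, and the second start (dashed line) runs through a grey bar of 339 bp.

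Tnfrsf4 and Tnfrsf18 are neighbours on chromosome 4 and encode OX40 and GITR, receptors best known from T cells. Tnfrsf4 (156013595 to 156016613) was the nearest gene to 0 regions. Its nearest accessible region began 4805 bp beyond the higher-coordinate end of the gene and was assigned to Tnfrsf18, and its annotated start was 7723 bp from any region. Tnfrsf18 (156026322 to 156028894) had 3 regions, all in neither list. One of them, 753 bp at 156025964 to 156026716, covered the start of the gene. The widest, 1210 bp at 156021418 to 156022627, lay between the 2 genes, 3695 bp from Tnfrsf18. The nearest up region was 135.5 kb from Tnfrsf18 and the nearest down region 5718.7 kb. The neighbouring genes thus differed in whether a region was called at the start, although the tables do not show how far below the calling threshold the Tnfrsf4 start lay.

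Tnfrsf1b encodes TNFR2, a receptor for TNF, and spans 145212368 to 145246870 on chromosome 4. It had as many regions as Tnfrsf9, and 0 of 13 were in either list, where 5.61% of all regions were listed. With so few regions, no difference from Tnfrsf9 is read from these counts. A region of 611 bp (145246559 to 145247169) covered the start, and 8 more overlapped the gene body. The widest, 1331 bp at 145228845 to 145230175, lay within the gene. The neighbouring gene Tnfrsf8 encodes CD30, another TNF receptor. The nearest up region lay beyond Tnfrsf8, 75.3 kb from Tnfrsf1b, and was 1 of 3 up regions among the 19 assigned to Tnfrsf8. The nearest down region was 166.0 kb away on the opposite side and was assigned to Vps13d.

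Cd27 encodes the receptor for CD70 and spans 125232620 to 125237136 on chromosome 6. It had 4 regions, none listed, and all of them lay at or upstream of the start. The widest of all 87 regions, 1378 bp at 125236397 to 125237774, covered the start of Cd27 together with the sequence printed above. The other 3, of 286, 518 and 305 bp, lay 1349, 4318 and 7467 bp beyond the gene. A down region of 853 bp (125221958 to 125222810) lay 9.81 kb beyond the other end of Cd27, but its nearest gene was Vamp1, whose span it overlapped. Cd27 therefore gained a down region when all regions within 10 kb were counted.

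Over the 5 receptor genes with an annotated start in the reference, 4 had a region overlapping the window from 250 bases before to 50 bases after a start, with Tnfrsf4 the exception. The corresponding share was 55.8% of 17492 protein-coding genes. For Tnfrsf9 the overlap was at the second start only.

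Cd28 and Icos, the immunoglobulin-superfamily receptors, lie on chromosome 1 with Ctla4 between them. CTLA-4 is an inhibitory receptor that competes with CD28 for the ligands CD80 and CD86, and ICOS binds its own ligand, ICOSL. Cd28 spans 60746388 to 60773359 and Icos 60960773 to 61000322. From the first region of Cd28 to the last of Icos, 55 regions were found over 545.0 kb: 20 for Cd28, 14 for Ctla4 and 21 for Icos. Of these 55, 4 were up and 5 were down. All 5 down regions were assigned to Cd28 or Icos, whereas the up regions were 2 for Ctla4 and 1 each for Cd28 and Icos.

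Of the 20 Cd28 regions, 3 were down and 1 was up. One down region of 513 bp lay inside the gene (60761551 to 60762063). Another of 558 bp lay 5346 bp beyond its higher-coordinate end (60778705 to 60779262). The last, of 400 bp, lay 49.5 kb beyond that end (60822880 to 60823279). The up region, of 394 bp, was on the other side of the gene at a distance of 68.6 kb (60677357 to 60677750). The region of 631 bp that covered the lower-coordinate end of Cd28 (60745964 to 60746594) was in neither list, nor was the widest, 948 bp within the gene (60755304 to 60756251).

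Of the 21 Icos regions, 2 were down and 1 was up. The down region within the gene was the widest of the 21, with 970 bp (60990124 to 60991093). The other, of 964 bp, lay 135.2 kb beyond the gene (61135512 to 61136475). The up region of 389 bp was 202.8 kb beyond it (61203152 to 61203540) and was the last accessible region before a gap of 173.6 kb. A region of 807 bp covered the lower-coordinate end of Icos (60960611 to 60961417) and was in neither list. The assignment of such distant regions rests on Icos being the nearest protein-coding gene and says nothing of which gene a region acts on.

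**Figure D3:**
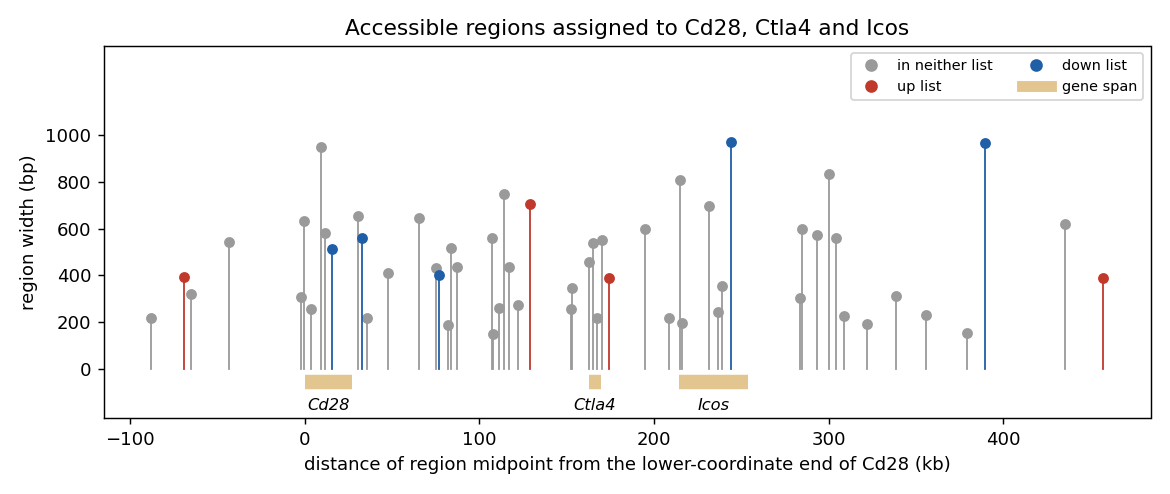
The 55 accessible regions assigned to Cd28, Ctla4 and Icos, with the distance of each midpoint from the lower-coordinate end of Cd28 on the x axis (kb) and the width of each region on the y axis (bp). Colours give the authors' lists and tan bars the gene spans. Along the locus, the listed regions come as 1 up, 3 down, 2 up, 2 down and 1 up.

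Along the chromosome, the 9 listed regions of this locus followed each other as 1 up (Cd28), 3 down (Cd28), 2 up (Ctla4), 2 down (Icos) and 1 up (Icos). Consecutive ones were 16.6 to 144.4 kb apart, and 4 of the 8 consecutive pairs were in the same list. The up regions of Ctla4 lay outside that gene, at 60874996 to 60875699 and at 60920496 to 60920885. The latter was 39.9 kb from Icos and nearer to it than the up region assigned to Icos itself.

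The 3 ligand genes had 13 regions in all, with a median of 4 per gene. Tnfsf4 encodes the OX40 ligand and spans 161395438 to 161418206 on chromosome 1. It had 7 regions, of which 1 was up. That region, of 675 bp, lay 18.9 kb from the lower-coordinate end of the gene (161375869 to 161376543). The widest, 716 bp at 161396342 to 161397057, lay within the gene, 904 bp from that end, and was in neither list. Tnfsf18, which encodes the ligand of GITR, is the next gene on the other side and had 1 up region among 5, of 548 bp, 14.3 kb from its own span. The 2 up regions were 103.3 kb apart on either side of Tnfsf4. The nearest down region to Tnfsf4 was 332.4 kb away and was assigned to Fasl.

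Tnfsf9, for the CD137 ligand, and Cd70, for the CD27 ligand, are neighbours on chromosome 17. Tnfsf9 (57105287 to 57107758) had 4 regions, none listed, and the widest of 1000 bp (57105097 to 57106096) covered its lower-coordinate end. Cd70 (57145997 to 57149777) had 2 regions, none listed. One, of 362 bp (57149499 to 57149860), covered its higher-coordinate end, and the other, of 432 bp (57166974 to 57167405), lay 17.2 kb away. The nearest up region was 141.8 kb from Tnfsf9 and the nearest down region 5225.6 kb. By receptor and ligand pair, 2 of 13 regions were up at Tnfrsf9 and 0 of 4 at Tnfsf9, 1 of 7 at Tnfsf4 with no region at Tnfrsf4, and 0 of 4 at Cd27 and 0 of 2 at Cd70. With so few regions, no difference within a pair is read from these counts.

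The positions of the 10 listed regions are given beside those of all listed regions. All 10 were more than 1000 bp from either end of their gene, whereas 11 of the other 77 lay at or within 1000 bp of an end. Of all listed regions in the series, 5.84% were that close to an end, and of all regions 16.9%. Outside the gene lay 8 of the 10, against 47.9% of all listed regions, and the 2 inside were the down regions of Cd28 and Icos. Of all 87 regions, listed or not, 60.9% lay outside their gene, beside 38.9% of all regions in the series. Lying outside is therefore not read as a trait of the 10 listed regions. Being away from an end was thus common to nearly all listed regions and is not particular to these. Their closest neighbours on either side were in neither list in 18 of 20 cases, near what the 5.61% of all regions that were listed would give, and the exception was the pair of up regions at Tnfrsf9, each counted once as the other's neighbour. The start or end regions of Tnfrsf18, Tnfrsf1b, Cd27, Cd28, Icos, Tnfsf9 and Cd70 were in neither list.

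Widths of the 87 regions ranged from 156 to 1378 bp with a median of 501 bp, against 400 bp for all regions. By gene, the median width was 753 bp for Tnfrsf18, 651.5 bp for Tnfsf9, 609 bp for Tnfrsf1b, 462 bp for Tnfsf4, 434 bp for Cd28, 413 bp for Tnfrsf9, 411.5 bp for Cd27, 397 bp for Cd70 and 389 bp for Icos. The ranges of these genes overlapped. The listed regions were 389 to 970 bp wide, with a median of 575.5 bp, and the unlisted ones had a median of 462 bp. In the series as a whole, the median was 470 bp for all listed regions and 400 bp for all regions, but the upper quartile was 606 bp and 653 bp, so that listed regions were of middle width. All regions were also divided by width into 4 classes of near-equal number. None of the 15 regions in the narrowest class, up to 252 bp, was listed, and in that class 0.612% of all regions were up and 0.367% down. The class from 401 to 653 bp held 30 of the 87 regions, 2 up and 2 down, where 8.05% of all regions were up and 2.30% down. The class from 253 to 400 bp held 21, 2 up and 1 down, where 5.63% of all regions were up and 1.10% down. The widest class, from 654 bp, held 21, 1 up and 2 down, where 2.58% of all regions were up and 1.83% down. Read numbers behind these regions are unknown, and their part in which regions were listed was not tested.

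**Figure D4:**
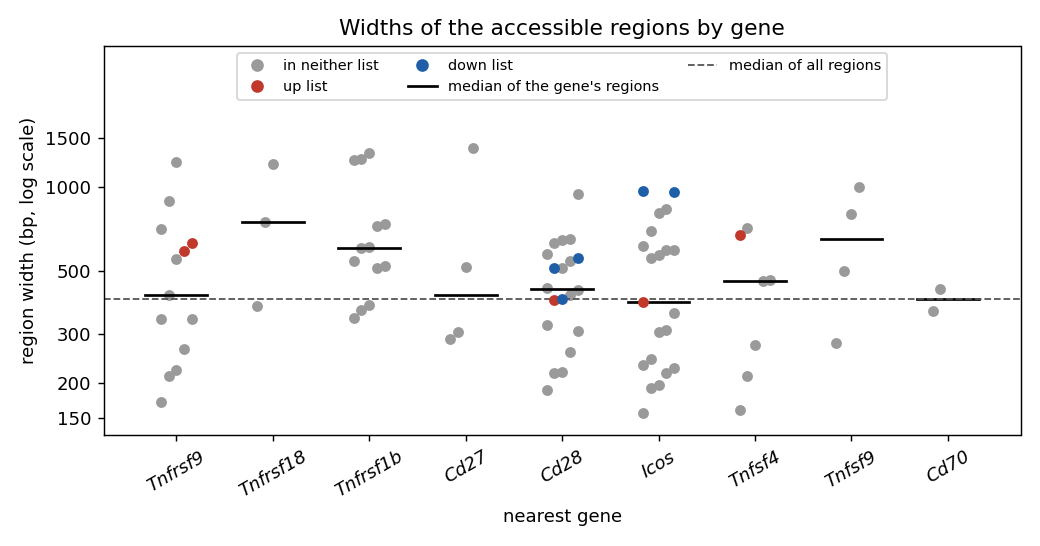
Widths of the accessible regions of the 9 genes that have any (y axis, bp, log scale), 1 point per region, coloured by the authors' lists, with a black line at each gene's median and a dashed line at the median of all regions (400 bp). The listed regions lie between 389 and 970 bp, and the widest regions of Tnfrsf9, Tnfrsf18, Tnfrsf1b and Cd27 are in neither list.

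The other genes of these pathways were taken from a list of 33 genes: further TNF-family receptors and ligands, TRAF and IAP proteins, regulators of NF-kB, the ligands of CD28 and ICOS and kinase adaptors. They were the nearest gene to 371 regions, of which 15 (4.04%) were up and 8 (2.16%) were down, beside 4.21% and 1.4% of all regions. An up region was assigned to 7 genes and a down region to 5, with 1 gene in both counts and 22 in neither. These were 21.2% and 15.2% of the list, beside 16.1% and 5.39% of all genes with a region. The genes of the list had a median of 8 regions against 3, and a gene with more regions is more often counted. The genes with down regions were Tnfaip3 (3 of 38), which encodes the NF-kB inhibitor A20, Traf1 (2 of 10), Birc3 (1 of 7), Nfkbia (1 of 10) and Pik3r1 (1 of 79, with 4 up). Traf1 encodes an adaptor of CD137, Birc3 a ubiquitin ligase recruited by TRAF proteins, Nfkbia the inhibitor IkB alpha, and Pik3r1 a regulatory subunit of phosphoinositide 3-kinase. Regions in only the up list were assigned to Cyld (3 of 9), a deubiquitinase, Tnfrsf8 (3 of 19), Ctla4 (2 of 14), Tnfsf18 (1 of 5), Cd86 (1 of 15) and Pik3cd (1 of 14). Traf2, Traf3, Traf5 and Traf6, the remaining TRAF genes on this list, had 4, 8, 13 and 5 regions. Map3k14, for the NIK kinase, had 6. They were among the 22 genes with no listed region, where 5.61% of all regions were listed. No difference from Traf1 or Birc3 is read from such small counts.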

How the data were processed

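The authors' deposited tables hold region positions and widths (other values, in bp) and their lists of up and down regions, with no counts. Per the submitters' processing notes, BWA, ArchR, MACS2 and HOMER 4.11.1 and the build mm10 were used. Not given in the sources used here are their roles, whether samples were pooled for peak calling, how up and down were tested and at what threshold, and the reference dose. The test of the doses planned for counts or normalized values was therefore not run.

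After 1 was added to the starts of the full table, each listed region was identical to a region in it. Each region was given to the nearest of 21900 protein-coding genes of RefSeq GRCm38.p6, by distance to the gene's span, ties going to the nearer end. At an end means within 1000 bp. The genes, the lists and the rule for naming regions (each listed region of a member, its widest region and that at its start) were chosen with earlier results of these data known, so all shares are descriptions. The pathway genes are named where listed. Positions inside a gene were not divided into exons and introns. Sequences of the regions themselves were not used here. On simulated data, the distance to the nearest gene was right for 100% of 2000 regions planted among 705 genes of chromosome 19, and 100% of 1200 planted motifs were found. Python 3.11.15, numpy 2.4.6 and pandas 2.3.3 were used.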

Additional observations from a re-analysis of the deposited data

How the results depend on the processing

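No paired analysis was possible because the tables give positions and not measurements of each sample. For the same reason, leaving out a replicate and a stricter threshold were not run. Assignment by distance to the gene start was not run, since a start was to hand for 5 of the 10 genes. Of 61 alternatives over 10 results, 44 stayed close and 17 moved, where close means within 1.5 times for a count and within the 95% binomial interval of the reported value for a share or the median width. The 87 regions became 49 with the nearest gene of any biotype, 34 with regions overlapping the gene and 46 without Cd28 and Icos, an alternative added after the data had been seen. The 5 up regions became 3 with any biotype, 2 within 10 kb, 0 overlapping the genes and 3 without Cd28 and Icos. The 5 down regions became 2 with any biotype, 2 overlapping the genes, 3 without Icos and 0 without Cd28 and Icos. The 4 genes with an up region became 2, 1, 0 and 2 with any biotype, within 10 kb, overlapping and without Cd28 and Icos. The 2 genes with a down region became 1 without Icos and 0 without Cd28 and Icos. These alternatives change which regions are counted by construction. Under any biotype, the up regions of Tnfrsf9 and Tnfsf4 and the down regions inside Cd28 and Icos were still assigned to those genes. Sequencing depth is unknown, so that regions below the authors' calling threshold cannot be judged.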
